A study of Mus musculus with 9 samples.

Results

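The nerve and pacemaker cells of the stomach wall were examined in newborn mice that lack C/EBPβ, a transcription factor encoded by Cebpb, through 32 genes that mark interstitial cells of Cajal, enteric neurons and enteric glia. The genes were taken by name from a list, and each was read from its array probe with the highest mean level. A probe was found for 31 of the 32. Erbb3b is a name with no probe on this mouse array. Of the 31, 30 were above background on enough arrays to be tested, out of 21730 genes tested in all, and Gfap was not. The samples were whole stomachs of 5 knockout mice (KO 1 to KO 5) and 4 wild-type mice (WT 1 to WT 4), each killed at birth and hybridised to its own 1-colour Agilent array. One label field describes the animals as old, but the protocol and the design both place them at birth. The strain, the deleted segment of Cebpb and any conditional driver are not given in the sources used here.

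The enteric nervous system is built by neural crest cells that migrate along the gut and form ganglia of neurons and glia. Their survival and migration depend on the ligand GDNF from the gut mesenchyme, which signals through Gfra1 and the receptor tyrosine kinase Ret, and on endothelin signalling through Ednrb. Mice and humans that lose either pathway lack ganglia in part of the gut. Interstitial cells of Cajal arise from mesenchyme instead, need the receptor Kit, and set the electrical slow waves of gut muscle through the chloride channel Ano1. Enteric motor neurons excite muscle with acetylcholine and tachykinins and relax it with nitric oxide and the peptide VIP.

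Levels below are on the log2 scale after each array was set to its own 75th percentile of signal, so 0 is that percentile, and differences are knockout minus wild type. That percentile lay between 221 and 472 and was lower on KO 1 (293) and KO 2 (286) than on the other 3 knockout arrays (457 to 472). Cebpb was 44.3-fold lower in knockout. The mean level of Y-linked genes was −4.93 on KO 2, −6.24 on KO 4 and −6.84 on KO 5, and −0.18 to 0.22 on all other arrays. The arrays with a low Y-linked level were thus all knockouts, so this level and genotype are partly confounded. The stomach on WT 4 differed from the remaining wild-type stomachs, with squamous forestomach genes at a median of −2.07 relative to the wild-type mean against 0.45 to 0.76 on the other 3. These are whole stomachs, so fewer cells of a type and less RNA per cell cannot be told apart.

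None of the 30 tested members passed the test between genotypes (limma, adjusted p over all genes), against 0.207% of all genes, 0.129% higher and 0.0782% lower. At an unadjusted p below 0.05 there were 4 members, namely Kit, Ano1, Gdnf and S100b. All 4 were higher in knockout, against 5.39% of all genes higher and 3.45% lower at that threshold. In 24 of the 30 (80.0%) the knockout mean was above the wild-type mean, against 53.0% of all genes, and leaving out each array in turn gave 20 (without WT 2 or WT 3) to 25 (without KO 2). The median difference was 0.26 over the members and 0.02 over all genes. By class the median difference was 0.44 for Cajal cell genes, 0.33 for progenitor factors and neurotrophic signals, 0.22 for neuron structure and release and 0.01 for transmitters. With slide as a block the median over the members was 0.10 instead of 0.26. KO 1 and KO 3 were each alone on a slide, so that fit drops them from the comparison. Only for Kit did the knockout and wild-type arrays not overlap, with knockout higher, a pattern seen in 2.43% of all genes, while 0.971% were separated in the other direction.

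**Figure D1:**
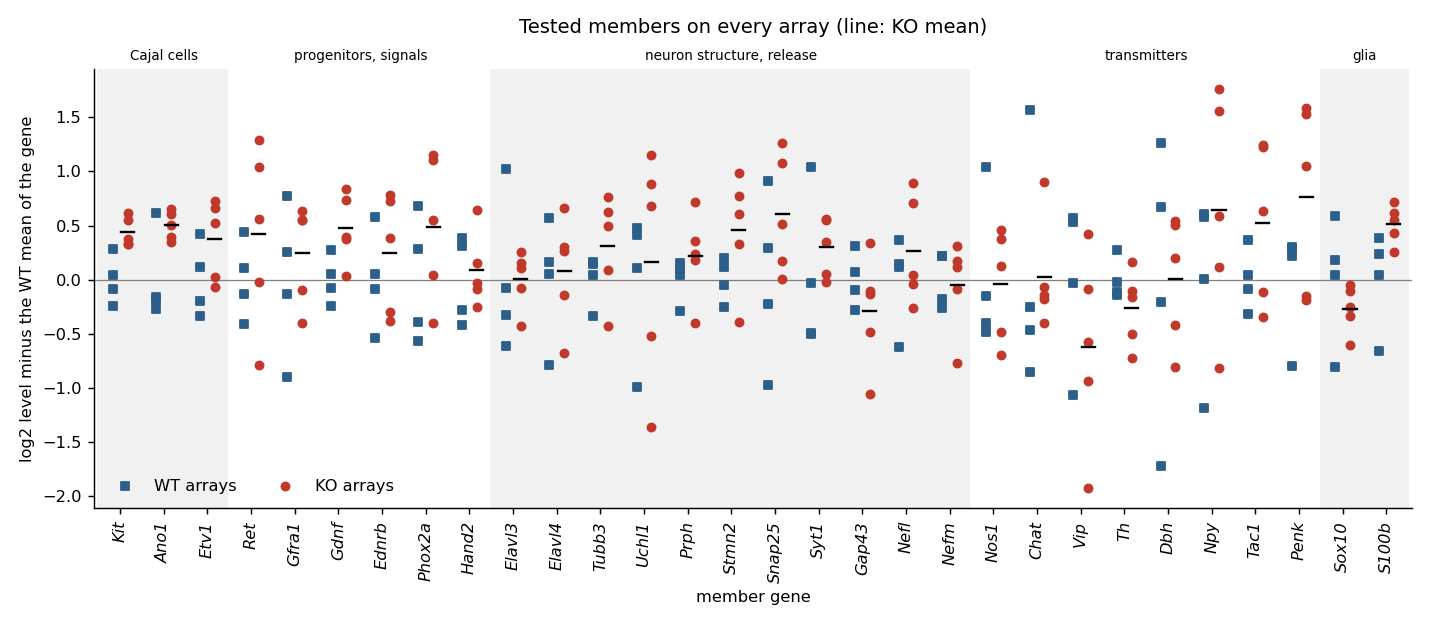
Log2 level of each of the 30 tested members on every array, relative to the gene's wild-type mean (y axis), with members along the x axis in 5 classes. Squares are the 4 wild-type arrays, circles the 5 knockout arrays and lines the knockout means. Kit is the gene whose squares and circles do not overlap, while the transmitter genes spread most widely in both genotypes.

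Of the Cajal cell genes, Kit encodes the receptor for stem cell factor that these cells need to develop and persist. In array order, its level was 2.18, 2.46, 2.40, 2.22 and 2.17 in the 5 knockout mice and 1.89, 2.13, 1.60 and 1.76 in the 4 wild-type mice, the order used for every gene below. The lowest knockout array, KO 5, lay just above the highest wild-type array, WT 2. The mean was 2.28 ± 0.14 (SD, n = 5) in knockout and 1.84 ± 0.22 (SD, n = 4) in wild type, a difference of 0.44 ± 0.15 (SE; 95% interval 0.10 to 0.78) or 1.36-fold. The exact two-sided permutation p was 0.00794, the smallest that the splits of these arrays can give, but over all genes the limma adjusted p was 0.437. Over all alternatives run, the difference in Kit stayed between 0.36 and 0.53 and its adjusted p between 0.260 and 1.00. The probe of Kit lies on chromosome 5 at 76052394 to 76052453 (mm9).

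Ano1 encodes the calcium-activated chloride channel that carries the pacemaker current. It lay at 4.20, 4.34, 4.30, 4.04 and 4.08 on the knockout arrays and at 3.53, 3.51, 3.42 and 4.31 on the wild-type arrays. The knockout arrays were close to each other, and 3 of the 4 wild-type arrays were lower than all of them, whereas WT 4 lay inside the upper part of their range. The difference was 0.50 ± 0.20 (limma adjusted p = 0.508, exact permutation p = 0.0556). Without WT 4 it was 0.71 (adjusted p = 0.0584). Relative to the wild-type mean, the 7 tested genes of gastric surface and parietal epithelium had a median level of 0.54 on WT 4. That median was −0.26 to 0.00 on the other wild-type arrays and 0.19 to 1.00 on the knockout arrays. The part of epithelial RNA in the level of Ano1 was not tested. The probe of Ano1 lies on chromosome 7 at 151774604 to 151774663 (mm9).

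Etv1, a transcription factor of the ETS family that acts downstream of Kit in these cells, was read by 2 probes. The probe used lay at 2.58, 2.49, 3.22, 3.08 and 3.28 in knockout and at 2.67, 2.36, 2.22 and 2.98 in wild type, so the groups overlapped, with a difference of 0.37 ± 0.23 (adjusted p = 0.727). The other probe differed by 0.57, with WT 4 at −1.67, the highest of the 9 arrays. On both probes the other 3 wild-type arrays lay below the knockout mean. All 3 Cajal cell genes kept a positive difference under every alternative that was run. This was not particular to them, as members of other classes, among them Gdnf, Stmn2, Penk and S100b, did so too.

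Promoters were inspected because the missing factor binds DNA, with the C/EBP motifs named below as the query. RefSeq start-site windows (GRCm38.p6, 250 bases before to 50 after the start) were matched by symbol for 23 members, and the remaining 9 had no entry. The full palindrome TTGCGCAA was in 0 of these 23 and in 0.207% of all genes, on either strand, and the composite TTGCATCA in 0 of 23 and in 1.03%. The looser TTGCNNAA, which contains every full palindrome, was in the windows of 4 members (17.4%), namely Etv1, Elavl4, Syt1 and Chat, against 12.2% of all genes. The 250 bases before the start are shown for Kit, the member whose groups were separated, on chr5:75574737-75574986 (plus strand), and for Etv1, the Cajal cell gene with a match, on chr12:38783461-38783710 (plus strand). Capitals mark a match to TTGCNNAA read on either strand, and none occurs in the Kit window.

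Kit: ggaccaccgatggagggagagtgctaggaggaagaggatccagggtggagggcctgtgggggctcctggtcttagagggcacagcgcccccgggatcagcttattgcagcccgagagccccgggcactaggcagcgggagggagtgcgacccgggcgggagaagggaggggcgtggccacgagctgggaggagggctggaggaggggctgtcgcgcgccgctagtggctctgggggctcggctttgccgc

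Etv1: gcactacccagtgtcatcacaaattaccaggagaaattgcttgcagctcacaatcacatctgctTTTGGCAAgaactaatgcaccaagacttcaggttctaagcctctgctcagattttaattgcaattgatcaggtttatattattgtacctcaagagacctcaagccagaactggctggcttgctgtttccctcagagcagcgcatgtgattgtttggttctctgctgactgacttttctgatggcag

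The match before Etv1 begins 186 bases upstream of 1 of its 2 listed starts, and the window of the other start holds none. The Kit window had 70.8% G and C and the Etv1 window 44.4%. The letters describe the windows and say nothing about binding in these stomachs.

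Among progenitor factors and neurotrophic signals, all 6 had a higher mean in knockout. Within slide 1 the knockout mean was higher for 6 of 6, but within slide 4 for 1 of 6. The signs on these slides were opposite for 83.3% of the class, against 54.1% of all genes. Gdnf, the ligand that draws crest cells into the gut, lay at 0.17, −0.17, 0.19, 0.63 and 0.52 in knockout and at −0.16, −0.28, −0.45 and 0.06 in wild type. KO 2 alone of the knockout arrays lay below WT 1 and WT 4, so the groups overlapped. The difference was 0.47 ± 0.19 (95% interval 0.04 to 0.91, limma adjusted p = 0.523, exact permutation p = 0.0476). Ret, its signalling receptor, lay at −0.31, −1.07, 1.00, 0.28 and 0.76 in knockout and at −0.18, −0.70, −0.42 and 0.15 in wild type. KO 2 was the lowest of all 9 arrays for Ret and KO 3 the highest, and the difference of 0.42 ± 0.40 (adjusted p = 0.844) was no larger than that spread. Gfra1, the co-receptor that binds GDNF, was well above background on 7 of 9 arrays and differed by 0.25 ± 0.35.

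Phox2a, a homeodomain factor of autonomic neurons, lay at 0.99, 0.55, 2.10, 1.5005 and 2.05 in knockout and at 1.23, 0.38, 0.55 and 1.63 in wild type. It showed the same order as Ret within the knockout arrays, with KO 3 and KO 5 high and KO 2 low, and differed by 0.49 ± 0.38 (adjusted p = 0.791). Ednrb, the receptor for endothelin 3, differed by 0.24 ± 0.31 on the probe used and by 0.47 on another probe of the gene. Hand2, a basic helix-loop-helix factor of neuron differentiation that gut mesenchyme also makes, differed by 0.09 ± 0.24.

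Of the 11 genes of neuron structure and release 9 had a higher mean in knockout and 2 a lower one, and none reached an unadjusted p below 0.05. Stmn2, a regulator of microtubules in growing axons, lay at 2.44, 1.72, 3.10, 2.72 and 2.88 in knockout and at 2.23, 1.85, 2.06 and 2.31 in wild type. Apart from KO 2, the lowest of all 9 arrays, the knockout arrays lay above every wild-type array. The difference was 0.46 ± 0.26 (limma adjusted p = 0.692), and 0.67 without KO 2 (adjusted p = 0.406). Snap25, a membrane fusion protein of synapses that endocrine cells also make, lay at 6.63, 6.44, 5.87, 5.37 and 5.54 in knockout and at 4.39, 5.65, 5.14 and 6.27 in wild type. Here KO 1 and KO 2 were the highest knockout arrays, the reverse of Stmn2, and the difference was 0.61 ± 0.39 (adjusted p = 0.746).

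Elavl4, a neuronal RNA-binding protein gene known as HuD, lay at −0.37, −0.89, 0.44, 0.04 and 0.08 in knockout and at −0.05, −1.005, −0.17 and 0.35 in wild type. The genotypes covered nearly the same range, and the difference was 0.08 ± 0.32, with 0.20 on another probe. Its relative Elavl3 differed by 0.00 ± 0.31, the smallest difference in size of all members. Tubb3, the neuronal tubulin gene, differed by 0.31 ± 0.25, and Uchl1, which encodes the ubiquitin hydrolase PGP9.5, by 0.17 ± 0.53. Uchl1 spread more than any other member of this class within knockout, from −1.61 on KO 2 to 0.90 on KO 4. Of the intermediate filament genes, Prph differed by 0.22 ± 0.22, Nefl by 0.27 ± 0.29 and Nefm by −0.05 ± 0.23. The synaptic calcium sensor gene Syt1 differed by 0.30 ± 0.31, and the growth cone gene Gap43 by −0.29 ± 0.27. The 95% intervals of these 9 differences include 0, and that of Uchl1, from −1.02 to 1.35, does not exclude a 2-fold difference in either direction.

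**Figure D2:**
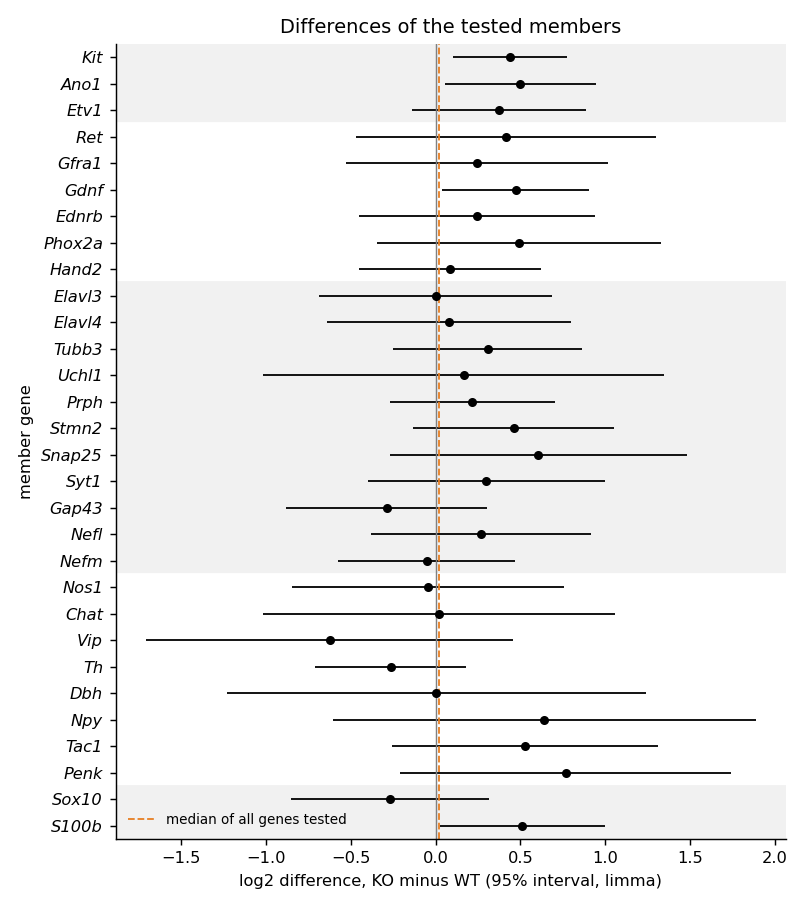
Difference in log2 level, knockout minus wild type (x axis), of the 30 tested members (y axis, shaded by class), with the 95% interval of the limma fit. The dashed line is the median of all genes tested, 0.02, and the intervals of Kit, Ano1, Gdnf and S100b alone lie above 0.

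Among the transmitter genes the median difference was 0.01, with 5 higher and 3 lower. Penk, the enkephalin precursor, lay at 2.15, 2.19, 3.93, 3.39 and 3.87 in knockout and at 2.64, 2.62, 2.56 and 1.53 in wild type. KO 3, KO 4 and KO 5 were above every wild-type array, while KO 1 and KO 2 were below 3 of the 4. The difference was 0.77 ± 0.44 (limma adjusted p = 0.687). Tac1, the substance P precursor of excitatory neurons, lay at 1.23, 0.99, 2.59, 1.98 and 2.57 in knockout and at 1.38, 1.03, 1.26 and 1.71 in wild type. The same 3 knockout arrays were the highest, and the difference was 0.53 ± 0.35 (adjusted p = 0.753).

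Vip and Nos1, the genes of inhibitory transmitters, had overlapping groups and showed no steady direction across slides. Vip differed by 0.17 within slide 1 and by −2.18 within slide 4, and Nos1 by −0.91 and 0.44. Vip lay at −0.38, −1.37, 0.47, 0.97 and −0.02 in knockout and at 1.08, 0.53, 1.13 and −0.51 in wild type. KO 2 was lowest and the wild-type arrays WT 3 and WT 1 highest, with a difference of −0.62 ± 0.49 (limma adjusted p = 0.795). Nos1, the neuronal nitric oxide synthase gene, lay at −2.27, −2.60, −2.35, −3.21 and −3.43 in knockout and at −3.21, −2.88, −3.13 and −1.69 in wild type. It was well above background on 8 of 9 arrays and differed by −0.05 ± 0.36, or by −0.25 on another probe. Chat, which makes acetylcholine, was measured on 8 arrays as well and differed by 0.02 ± 0.47.

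Genes of the noradrenergic pathway and its co-transmitter mark sympathetic neurons and, early on, migrating crest cells. Which cells gave their RNA in these stomachs was not tested. Th, the rate-limiting enzyme of catecholamine synthesis, lay at −0.66, −0.87, −0.26, 0.02 and −0.31 in knockout and at −0.27, −0.29, 0.13 and −0.17 in wild type. KO 1 and KO 2 lay below all other arrays but the groups overlapped, with a difference of −0.27 ± 0.20 (limma adjusted p = 0.790). Dbh, the next enzyme but one, was well above background on 6 arrays and differed by 0.01 ± 0.55. Npy was well above background on 4 of 5 knockout arrays and on 1 of 4 wild-type arrays and differed by 0.64 ± 0.56, so the size is uncertain.

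The glial genes went in different directions. S100b, a calcium-binding protein gene of mature glia, lay at −0.97, −0.90, −1.09, −0.80 and −1.27 in knockout and at −1.28, −1.48, −1.14 and −2.18 in wild type. The knockout arrays were close together, and the lowest of them, KO 5, lay below WT 3. The difference was 0.51 ± 0.22 (95% interval 0.02 to 1.00, limma adjusted p = 0.541, exact permutation p = 0.0238). WT 4 was the lowest array, and without it the difference was 0.29. Sox10, the factor that keeps crest cells and glia in their lineage, lay at −0.16, −0.51, 0.04, −0.01 and −0.24 in knockout and at 0.28, 0.14, 0.68 and −0.72 in wild type. WT 4 was again the lowest of all arrays, the other 3 wild-type arrays were above all knockout arrays, and the difference of −0.27 ± 0.26 (adjusted p = 0.851) became −0.54 without WT 4 (adjusted p = 0.210). Gfap, an intermediate filament gene of glia, had 3 probes. None was well above background in a knockout stomach, and 2 of them did so on 2 of the 4 wild-type arrays each.

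Within the knockout group, many members had their extremes on the same arrays. KO 2 was the lowest of the 5 knockout arrays for 21 of the 30 members (70.0%), while this held for 20.1% of all genes, and for 9 of the 11 genes of neuron structure and release. KO 3 was the highest for 14 members (46.7%, against 18.2% of all genes). Among the wild-type arrays, WT 2 was the lowest for 12 members (40.0%, against 14.2% of all genes). WT 4 was the highest for 16 members and the lowest for 10 (53.3% and 33.3%, against 39.7% and 36.9% of all genes). Over all genes, too, WT 4 was the wild-type array most often highest and most often lowest. The median level of the neuron structure and release genes, relative to the wild-type mean, was −0.43 on KO 2, 0.09 on KO 1 and 0.23 to 0.66 on the other knockout arrays, and −0.29 to 0.20 on the wild-type arrays. Of the Cajal cell genes, Kit and Ano1 were highest on KO 2, whereas Etv1 was lowest there among the knockout arrays, and the median of the 3 was 0.62 on KO 2. KO 1 and KO 2 are also the knockout arrays with the lowest 75th percentile of signal, and the part of that brightness in the result was not tested.

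**Figure D3:**
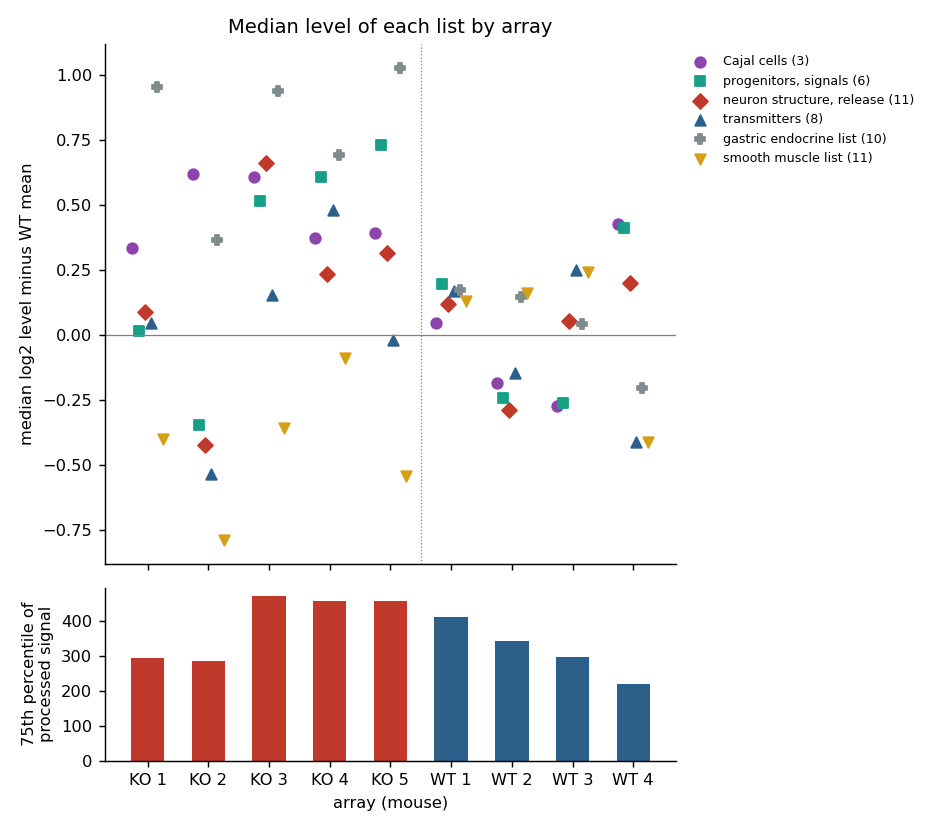
Upper panel, median log2 level of 4 classes of members and of the gastric endocrine and smooth muscle lists on each array, relative to the wild-type mean (y axis), with arrays on the x axis and the number of genes in brackets. Lower panel, the 75th percentile of the processed signal on the same arrays. On KO 2 the neuron class lies at −0.43 and the Cajal cell class at 0.62.

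The difference between genotypes was also taken within each slide that held both. Slide 1 held KO 4, KO 5, WT 3 and WT 4, and slide 4 held KO 2, WT 1 and WT 2, while KO 1 and KO 3 were each on a slide without a wild-type array. Within slide 1 the knockout mean was higher for 21 of 30 members with a median difference of 0.47. Within slide 4 it was higher for 8 of 30, with a median of −0.33. For all genes the medians within the slides were 0.00 and 0.06. With 1 knockout array on slide 4, mouse and slide cannot be told apart there. Kit (0.51 on slide 1 and 0.45 on slide 4), Ano1 (0.20 and 0.82), S100b (0.62 and 0.48) and Gdnf (0.77 and 0.05) were higher on both slides. That is 4 of 30 members (13.3%), below the 25.7% of all genes that were higher on both. Elavl3, Elavl4, Gap43, Th and Sox10 were lower on both (16.7%, against 20.2% of all genes). The remaining 21 members (70.0%) had opposite signs on the 2 slides, against 54.1% of all genes. Penk (1.58 and −0.44), Uchl1 (1.17 and −1.62) and the Cajal cell gene Etv1 (0.58 and −0.02) were among them.

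**Figure D4:**
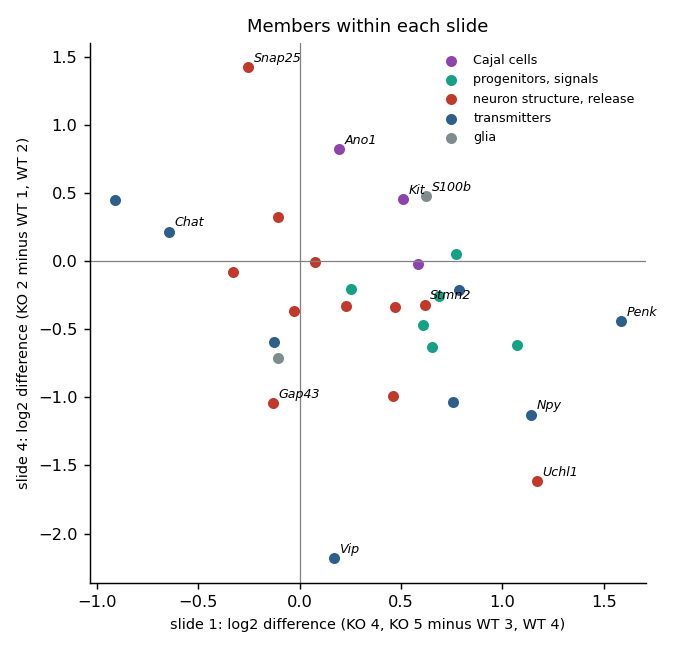
Difference in log2 level within slide 1 (x axis, KO 4 and KO 5 minus WT 3 and WT 4) and within slide 4 (y axis, KO 2 minus WT 1 and WT 2), 1 point for each of the 30 members, coloured by class. Kit, Ano1, S100b and Gdnf lie at the upper right, and 8 of 30 points lie above 0 on the y axis.

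Other genes known from the enteric nervous system and the muscle wall, 63 on 5 further lists of which 55 were tested, gave 0 calls by limma after adjustment and 9 at an unadjusted p below 0.05, all higher in knockout. At that threshold 5.39% of all genes were higher and 3.45% lower, and 0.207% of all genes were called after adjustment. The knockout mean was higher for 45 of the 55 (81.8%, against 53.0% of all genes), with a median difference of 0.27. In 2 of the 55 the groups did not overlap, with knockout higher, a pattern seen in 2.43% of all genes. Entpd2, which encodes an ectonucleotidase of enteric glia, had the lowest p of them, differed by 0.63 ± 0.15 (limma adjusted p = 0.243, exact permutation p = 0.00794) and did not overlap between groups. Fabp7, a lipid-binding protein gene of glial precursors, differed by 0.66 ± 0.26. Erbb3, the mouse neuregulin receptor gene of crest cells and glia, differed by −0.01 ± 0.14. Scg2, a granule protein gene shared by neurons and endocrine cells, differed by 0.80 ± 0.27, and Elavl2, a relative of Elavl4, by 0.58 ± 0.20.

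Of the other progenitor factors and signals, Zeb2 differed by 0.36 ± 0.18 and Ece1, which processes endothelins, by 0.42 ± 0.21. Slc18a2, the vesicular monoamine transporter gene, differed by 0.55 ± 0.21 and Gal, the galanin precursor, by −0.58 ± 0.29. All 10 pacemaker and fibroblast-like cell genes had a higher mean in knockout, with a median of 0.34. Relative to the wild-type mean, their median level was −0.56 on WT 4 and 0.11 to 0.28 on the other 3 wild-type arrays, which overlapped the knockout range of 0.17 to 0.47. The largest difference among them was that of Prkcq, a protein kinase gene of Cajal cells, at 1.11 ± 0.36. Prkcq was well above background on 4 of 5 knockout arrays and on 2 of 4 wild-type arrays, so the size is uncertain. Its difference was 2.11 within slide 1 and 0.18 within slide 4. Next came Gucy1a1, a subunit of the nitric oxide receptor, at 0.58 ± 0.23, whose groups did not overlap. Kcnn3, a potassium channel gene of fibroblast-like cells, differed by 0.52 ± 0.20. Edn3, Chrna3, Slc6a2, Calb1, Calb2 and Cdh19 stayed at background on all 9 arrays.

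Markers of other cells that share genes with the members also differed in mean between genotypes. Gastric endocrine cells, which also make Snap25, Uchl1 and Scg2, had a higher knockout mean for all 10 genes tested of 12 (median 0.74), with 0 calls by limma and 8 at an unadjusted p below 0.05. Their median level was 0.36 to 1.03 on the knockout arrays and −0.21 to 0.17 on the wild-type arrays, so the arrays did not overlap. Chga differed by 0.75 ± 0.20, Chgb by 1.27 ± 0.30 and Hdc by 0.87 ± 0.19, while Neurod1 and Pax6 stayed at background. Smooth muscle genes had a lower knockout mean for 10 of 11 (median −0.43), with 0 calls by limma and 3 at an unadjusted p below 0.05. Actg2 differed by −0.92 ± 0.21 (limma adjusted p = 0.209) and Tagln by −0.52 ± 0.17. Their median level overlapped between genotypes, from −0.79 (KO 2) to −0.09 in knockout and from −0.41 (WT 4) to 0.24 in wild type. The part of endocrine and muscle RNA in the members' differences was not tested.

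Mast cells also carry Kit, and the 4 tested of their 6 genes had a median difference of −0.53, with 0 calls by limma and 0 at an unadjusted p below 0.05. Their median level ran from −2.02 to 0.41 on the knockout arrays and from −2.49 to 1.20 on the wild-type arrays, and Ms4a2 and Fcer1a stayed at background on all arrays. The part of mast cell RNA in the level of Kit was not tested. Melanocytes carry Kit and Sox10, and of their genes Tyrp1 and Mlana were at background on all arrays, while Dct was well above it on 1. Pmel was well above background on 9 arrays and differed by 0.52 ± 0.24. Tyr was well above it on 5 arrays and differed by −0.19 ± 0.26. The part of melanocyte RNA in Kit and Sox10 was not tested. The adrenal gland carries Th, Dbh, Npy and Penk. Of its genes Cyp11b1 was at background throughout, Mc2r was well above it on 1 array and Cyp11a1 on 3. The 3 tested genes had a median difference of −0.11. Star, well above background on 8 arrays, differed by −1.54 ± 0.79. Nr5a1 differed by −0.11 ± 0.18 and Pnmt by 0.26 ± 0.19, both well above background on 9 arrays. The part of adrenal RNA in these members was not tested.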

How the data were processed

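Total RNA of 9 newborn stomachs was labelled with Cy3 from oligo dT primed cDNA, per the labels' protocols. The deposited spot intensity values are linear and come from Agilent Feature Extraction 10.5.1.1, per the file headers, with background subtracted and no scaling between arrays. The submitters' processing notes name version 9.1. The deposited flags for background, saturation and outliers are yes or no values of another kind. The authors' deposited series matrix holds log2 values. Differences between its arrays correlated with those of the log2 processed signal at 0.999998 or more, which fixes direction but not scale. Fitted on its values, Kit differed by 0.44 and the median over the members was 0.26, as in the main setting. What its probes were centred on is unknown. In array order, its knockout columns had medians of 0.0436, 0.217, −0.124, 0.0347 and −0.137, and its wild-type columns −0.279, −0.161, 0.224 and 0.381.

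Control and outlier spots were left out and spots of a probe averaged. The arrays had 50.9% to 57.2% of spots well above background and 0 saturated, and their number limits the precision. Levels are log2 of the processed signal, less its 75th percentile on that array. A probe was kept if at least 4 of 9 arrays had it well above background, and 1 probe per gene (highest mean) gave 21730 genes. Of 55681 probes, 26762 matched a RefSeq accession, and 2878 of those took a newer symbol. Genotypes were compared with limma 3.58.1 (lmFit, eBayes, two-sided) in R 4.3.3 over all genes, with Benjamini-Hochberg adjustment and a threshold of 0.05. SE and 95% intervals are limma's. Single members were also tested by exact permutation, where 30 unadjusted p-values form the family. The labels call each sample a separate mouse. The steps were tested on simulated data.

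The members and gene lists were chosen with earlier results of these data known. All members are named, with values on every array for those separated by genotype, the 2 with the smallest p of each class, and Kit, Ano1, Ret, Sox10, Elavl4, Nos1, Vip and Th; Etv1 was added after its values were seen. Of the other lists the genes with the smallest p are named, with Erbb3 and Chga; Gucy1a1 was likewise added, and some genes that the rule names are not reported here. Alternatives covered scaling, background correction, filter, probe choice, slide, mouse number, Y-linked level, moderation and leaving out each array.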

Additional observations from a re-analysis of the deposited data

Results flagged for a closer look

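Within their group of 4 or 5 arrays, single arrays stood outside the others for 3 of 60 combinations of member and genotype, and chance gives about 1 in 20. Ano1 lay at 4.31 on WT 4, above the other wild-type arrays. Penk lay at 1.53 on WT 4, below the other wild-type arrays. Chat lay at −2.48 on KO 1, above the other knockout arrays.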

How the results depend on the processing

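Under all 21 alternatives, 0 members passed by limma in either direction, and the smallest adjusted p was 0.0584, for Ano1 without WT 4. Between 0 (with a covariate for Y-linked signal) and 7 members had an unadjusted p below 0.05. The median over the members ran from 0.10 with slide as a block to 0.40 without KO 2. The slide block drops KO 1 and KO 3 from the comparison. The main value was 0.26, and the cause of its movement was not tested. Leaving out arrays in turn gave medians from 0.17 to 0.40. Between 21 and 26 of 30 members were higher under the scalings and background correction tried. With the mouse number as a replicate block, which drops KO 5 from the comparison, the median was 0.22 and 4 genes of all passed instead of 45. The number was 5 with slide as a block, 5 with a covariate for Y-linked signal, 25 with no filter, and 11 to 149 when arrays were left out, highest without WT 4. Deviations from the genotype means, over all genes tested, correlated between same-numbered mice at −0.305, 0.122, 0.153 and −0.482. These values differ in sign and cannot settle whether the numbers pair the mice.

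Members with small differences changed sign. Scaled to probes above background on all arrays, Elavl3 lay at −0.0508, Chat at −0.0310 and Dbh at −0.0472. Scaled to the median, Nefm lay at 0.0042 and Nos1 at 0.0122. After quantile normalization Elavl3 lay at −0.0139 and Nefm at 0.0046. After normexp Gfra1 lay at −0.0328, Chat at −0.17 and Dbh at −0.20. With slide as a block Elavl3 lay at −0.23, Elavl4 at −0.16 and Chat at −0.30. With the replicate block Elavl3 lay at −0.0255, Nos1 at 0.12 and Dbh at −0.12. With a covariate for Y-linked signal, Ednrb lay at −0.0882, Uchl1 at −0.0154, Nos1 at 0.49 and Dbh at −0.26. Leaving out arrays in turn gave −0.0524 to 0.505 for Gfra1, −0.0551 to 0.21 for Hand2, −0.20 to 0.34 for Elavl3, −0.18 to 0.27 for Elavl4, −0.17 to 0.55 for Uchl1, −0.14 to 0.13 for Nefm, −0.21 to 0.30 for Nos1, −0.26 to 0.55 for Chat and −0.57 to 0.43 for Dbh. Gfra1, Nefm, Nos1, Chat, Dbh and Npy were close to background on some arrays, which limits their precision.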
